A study of Mus musculus with 16 samples.

Results

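The genes described here lie in a pair of clusters on mouse chromosome 1: C130026I21Rik, Gm2619, Sp100, Sp110 and Sp140 in the Sp100-like cluster, and Ifi202b, Ifi203 and Ifi204 in the p200 cluster. They are 8 of the 43346 genes in the deposited table. They were taken by name and were selected on measured values, namely the log2 fold changes with age that earlier results of the same libraries had shown. Both age comparisons are therefore given for these genes as a description, without a p-value.

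RNA was sequenced from lung endothelial cells (ECs, the lining of blood vessels) of FVB mice that carry a Col1α1-GFP transgene, a fluorescent reporter of collagen-producing cells. Young mice were 2 and aged mice 18 months old. Bleomycin, a drug that injures the lung and is followed by fibrosis, was given into the trachea, sham mice received the carrier, and lungs were taken 30 days later. Cells were sorted as CD31+ (an endothelial surface protein), CD45- (leukocytes), EpCAM- (epithelium) and GFP-. The groups are Young Sham (2 months, carrier, n = 5, libraries 21 to 25), Young Bleo (2 months, bleomycin, n = 4, libraries 17 to 20), Aged Sham (18 months, carrier, n = 3, libraries 13 to 15) and Aged Bleo (18 months, bleomycin, n = 4, libraries 1, 2, 3 and 5). All groups share the strain, the transgene and the sort, so no group lacks the reporter. The methods describe mice of both sexes. All 16 libraries nevertheless held Y-linked counts (2359 to 9469) and 0 to 23 counts of Xist.

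The Sp100 family encodes nuclear proteins: SP100 is a scaffold of PML nuclear bodies, compartments that restrain viruses and bind chromatin, while SP110 and SP140 read chromatin and are best known from immune cells. Mice carry many duplicated Sp100-like copies next to Sp100, most of them annotated as pseudogenes. The p200 family (Ifi202b, Ifi203, Ifi204 and relatives) encodes HIN domain proteins that bind DNA in the nucleus or the cytosol, and genes of both families are known interferon targets. IFI202B lacks the pyrin domain that its relatives use to signal and is known as an inhibitor of the AIM2 DNA sensor.

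Total counts per library ranged from 20907113 to 71035301. Of the listed endothelial markers all 12 were detected in every group, and leukocyte markers were present in all libraries. Summed endothelial levels were 859472 to 1006390 normalized counts (Young Sham), 632804 to 758760 (Young Bleo), 827300 to 873736 (Aged Sham) and 609118 to 788261 (Aged Bleo). At each age the bleomycin libraries were thus below the sham libraries. In Aged Bleo 1 and 2 the macrophage sums were 185751 and 115048, beside endothelial sums of 609118 and 641137. Macrophage markers (11 genes summed) reached 3379 to 5634 normalized counts (Young Sham), 18372 to 62012 (Young Bleo), 7685 to 24081 (Aged Sham) and 26975 to 185751 (Aged Bleo). The common leukocyte genes (5 genes summed, with Ptprc, the CD45 gene) reached 719 to 1519, 1777 to 2535, 2388 to 6565 and 3240 to 8136 in the same order. In a bulk library, fewer cells of a type and less RNA per cell cannot be told apart.

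Positions below refer to mm10 and come from the deposited table. C130026I21Rik (ENSMUSG00000052477, protein coding) is annotated at chr1:84992690-85270566, a span of 277877 bases that overlaps 15 other annotated genes. Gm2619 (ENSMUSG00000091199, a transcribed unprocessed pseudogene with an annotated exon length of 494 bases) lies at chr1:85308659-85327306 and overlaps Gm16025. Sp110 (ENSMUSG00000070034, chr1:85576899-85598817), Sp140 (ENSMUSG00000070031, chr1:85600378-85645037) and Sp100 (ENSMUSG00000026222, chr1:85649988-85709998) follow one another. The p200 genes lie far from these: Ifi204 (ENSMUSG00000073489) at chr1:173747293-173766943, Ifi203 (ENSMUSG00000039997) at chr1:173920407-173942672 and Ifi202b (ENSMUSG00000026535) at chr1:173962568-173982744.

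The copies differ in how far their reads can be told apart. The longest GENCODE transcript of each gene was compared with transcripts of all other genes, and stretches of at least 100 bases with at least 98% identity were counted as shared. Shared stretches covered 81.3% of the Sp140 transcript, 58.4% of Gm2619 (with Sp100 and Gm7609), 25.3% of C130026I21Rik (with Sp140 and Gm6264), 18.2% of Sp110 and 12.7% of Sp100. They covered 0% of Ifi202b, Ifi203 and Ifi204. Annotated spans overlap as well: Ifi203 with Mndal, Sp110 with G530012D18Rik, Sp140 with Gm10552 and Gm17017, and Sp100 with Gm17017 and n-R5s215. The strand setting is not given, so reads in such overlaps may not be told apart. How the authors treated reads that fit several places is not given in the sources used here and the values of single Sp100-like copies are uncertain. The GENCODE model of Gm2619 differs in span from the deposited one.

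The likeness reaches into the start sites. The promoter windows below (250 bases before to 50 after the start, from RefSeq on GRCm38.p6, 5′ to 3′ on the gene's strand) are shown because genes with nearly the same start differed widely in level. The window of C130026I21Rik (chr1:85270517-85270816, minus strand) and that of Sp140 (chr1:85600453-85600752, plus strand) align over 255 bases with 1 difference, and the window of Sp100 (chr1:85649764-85650063, plus strand) and that of the copy Gm7609 (chr1:85199361-85199660, plus strand) align over 298 bases with 5 differences. Capitals mark the bases that differ within the aligned stretch.
C130026I21Rik: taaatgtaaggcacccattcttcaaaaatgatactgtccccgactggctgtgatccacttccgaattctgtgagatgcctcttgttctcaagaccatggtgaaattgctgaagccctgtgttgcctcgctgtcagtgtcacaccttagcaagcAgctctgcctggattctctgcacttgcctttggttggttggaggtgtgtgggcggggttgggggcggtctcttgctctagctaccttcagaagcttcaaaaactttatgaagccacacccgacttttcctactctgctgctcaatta
Sp140: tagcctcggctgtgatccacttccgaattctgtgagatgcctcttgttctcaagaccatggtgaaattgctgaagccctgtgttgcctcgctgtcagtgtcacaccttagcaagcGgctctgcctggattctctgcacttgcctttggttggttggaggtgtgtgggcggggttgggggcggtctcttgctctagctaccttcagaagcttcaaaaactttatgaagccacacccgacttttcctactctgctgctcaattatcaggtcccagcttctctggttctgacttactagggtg
Sp100: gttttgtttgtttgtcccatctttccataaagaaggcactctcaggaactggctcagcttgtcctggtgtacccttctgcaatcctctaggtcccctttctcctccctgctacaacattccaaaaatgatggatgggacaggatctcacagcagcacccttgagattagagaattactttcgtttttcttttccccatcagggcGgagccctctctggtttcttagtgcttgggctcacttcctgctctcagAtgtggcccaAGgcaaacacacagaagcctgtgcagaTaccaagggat
Gm7609: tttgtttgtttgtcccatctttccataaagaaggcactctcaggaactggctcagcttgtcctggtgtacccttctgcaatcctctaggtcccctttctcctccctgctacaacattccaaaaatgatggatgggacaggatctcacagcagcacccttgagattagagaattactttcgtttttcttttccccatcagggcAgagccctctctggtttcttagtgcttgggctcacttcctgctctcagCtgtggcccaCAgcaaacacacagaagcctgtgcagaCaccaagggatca

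A window was listed for C130026I21Rik, Sp100, Sp110, Sp140, Ifi202b and Ifi203. They were searched on both strands for the interferon-stimulated response element as GAAA, any 2 bases (NN) and GAAA, which 3.44% of all 32851 windows hold, and for the interferon-gamma activated sequence as TTCNNNGAA, which 8.30% hold. The first was found once, in 1 of the 2 windows listed for Ifi203 (chr1:173942443-173942742, minus strand), and the second once, in that of Ifi202b (chr1:173982795-173983094, minus strand). Neither was found in the windows of C130026I21Rik, Sp100, Sp110 and Sp140, which says only that these letters are not in those windows. Both p200 windows are printed with the match in capitals.
Ifi203: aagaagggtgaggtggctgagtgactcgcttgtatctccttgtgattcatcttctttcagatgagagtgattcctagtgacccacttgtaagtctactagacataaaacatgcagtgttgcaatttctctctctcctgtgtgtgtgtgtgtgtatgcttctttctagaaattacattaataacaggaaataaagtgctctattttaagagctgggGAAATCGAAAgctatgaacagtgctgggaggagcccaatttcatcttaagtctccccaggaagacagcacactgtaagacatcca
Ifi202b: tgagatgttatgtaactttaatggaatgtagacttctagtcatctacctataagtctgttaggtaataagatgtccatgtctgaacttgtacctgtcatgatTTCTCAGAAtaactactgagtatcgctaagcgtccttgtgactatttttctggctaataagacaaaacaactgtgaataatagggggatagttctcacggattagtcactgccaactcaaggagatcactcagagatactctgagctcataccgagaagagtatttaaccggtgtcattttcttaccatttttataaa

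With age, the 8 genes split into 3 that were higher in aged ECs and 5 that were not. Levels are given as normalized counts, which are read counts divided by a DESeq2 size factor, and a gene is called where its p, adjusted after Benjamini and Hochberg, does not exceed 0.05 and its log2 fold change is 0.5 or more in size. C130026I21Rik, Gm2619 and Ifi202b were called higher in Aged Sham than in Young Sham, which is the contrast that chose them, beside 2.24% of all tested genes by DESeq2. The same 3 were called by edgeR, beside 0.699% of its tested genes. Since the genes were selected on age differences, these calls and those of the other age comparison describe the selection, and nothing is read from their shares.

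C130026I21Rik was close to absent in young ECs. In Young Sham it was at 2.83, 0.824, 2.05, 1.17 and 0.978 normalized counts, which are 3, 1, 1, 1 and 1 reads. In Aged Sham it was at 146, 309 and 39.3, so every aged library lay above every young one. The summed counts were 384 against 7, a depth-scaled ratio of 103 with an exact Poisson 95% interval of 49.7 to 259, which covers counting error only. Library 14 held 268 of the 384 counts, and without it the fitted log2 fold change was 5.91 in place of 6.75.

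After bleomycin the same separation by age was seen, at a smaller ratio. C130026I21Rik was at 21.7, 2.08, 7.71 and 2.32 normalized counts in Young Bleo and at 167, 124, 75.6 and 99.0 in Aged Bleo. The groups did not overlap, and the ratio of the summed counts (629 and 37) was 13.3, with a Poisson interval of 9.52 to 19.0 for counting error only. Young Bleo 17 held 25 of the 37 counts, and without it the fitted log2 fold change was 4.88 in place of 3.78. The fitted log2 fold change was 6.75 (SE 0.90) between the sham groups and 3.78 (SE 0.73) between the bleomycin groups.

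Gm2619, the pseudogene, was likewise close to absent in young ECs. It was at 5.66, 1.65, 0, 1.17 and 0 normalized counts in Young Sham and at 129.9, 226 and 117 in Aged Sham. Its values were 14.7, 22.9, 7.71 and 0.773 in Young Bleo and 456, 223, 157 and 212 in Aged Bleo. Aged and young libraries were again fully apart, by a count ratio of 81.5 (Poisson interval 42.5 to 179; 389 and 9 counts) between the sham groups and 23.4 (Poisson interval 17.5 to 31.9; 1407 and 47 counts) between the bleomycin groups, again with counting error only. The fitted log2 fold changes were 6.40 (SE 0.84; 7.58 without Young Sham 21) and 4.52 (SE 0.68).

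Ifi202b, the p200 member without a pyrin domain, differed by less and was present in all groups. It was at 117, 90.6, 100.5, 101 and 65.5 normalized counts in Young Sham and at 336, 289.6 and 315 in Aged Sham, with no overlap and a log2 fold change of 1.73 (SE 0.29). In Young Bleo it was at 107, 211, 158 and 104 and in Aged Bleo at 183, 282, 271 and 181. These bleomycin groups overlapped, since Young Bleo 18 lay above Aged Bleo 1 and 5, and the log2 fold change was 0.67 (SE 0.27). The order of its group means was Young Sham (94.9 ± 19.0, SD, n = 5), Young Bleo (145 ± 50.7, n = 4), Aged Bleo (229 ± 54.8, n = 4) and Aged Sham (314 ± 23.1, n = 3), and among neighbours in this order only Aged Bleo and Aged Sham did not overlap.

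**Figure D1:**
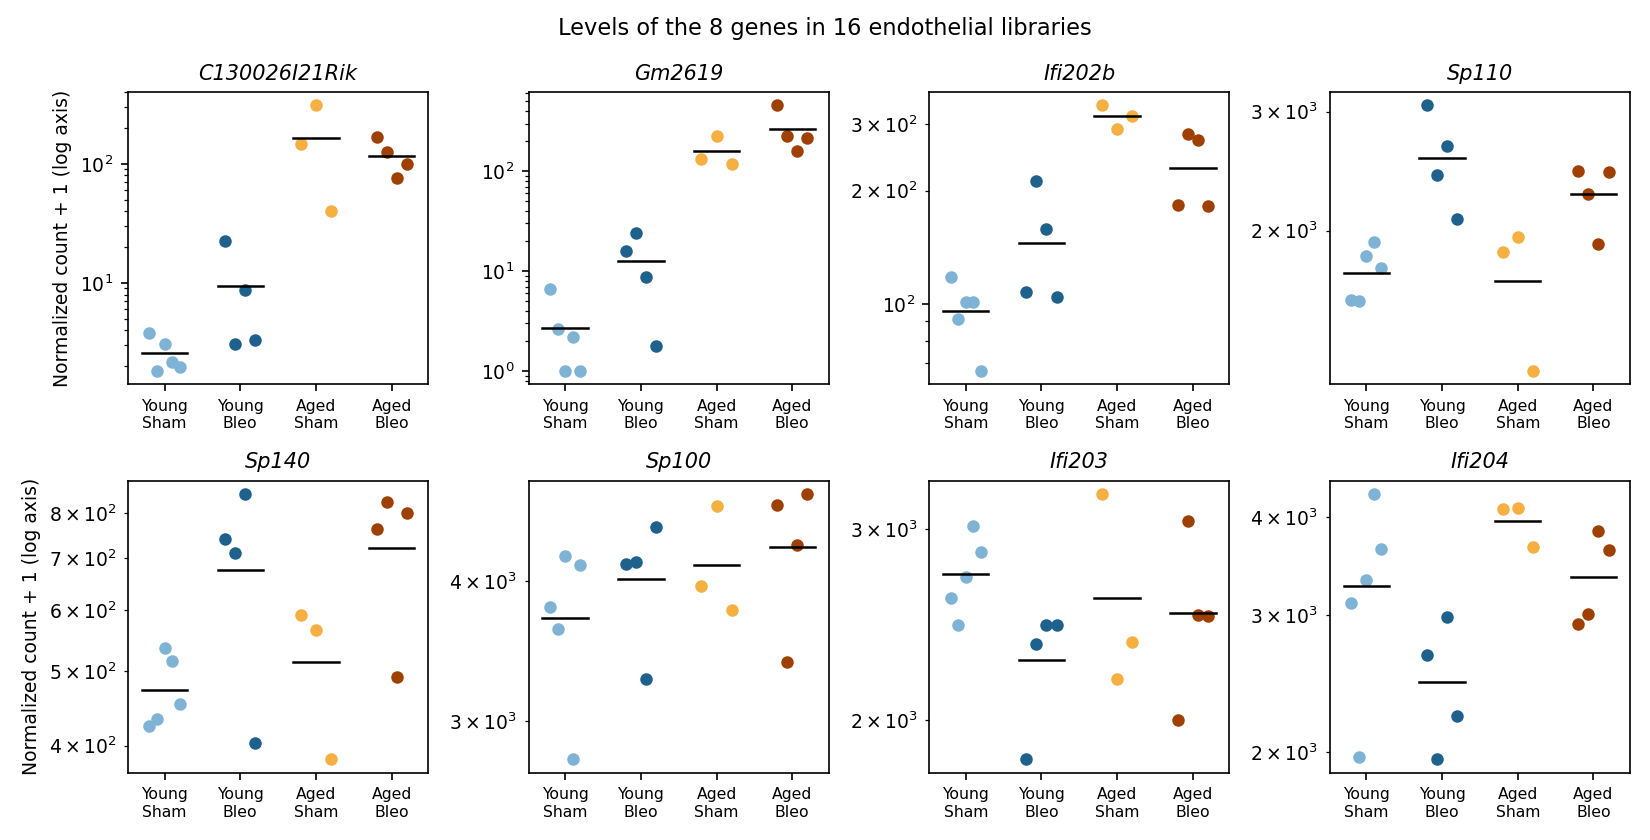
Each panel shows 1 gene, with the normalized count + 1 of each library on a log axis (points, libraries in order of their number within a group) and the group mean (bar). C130026I21Rik and Gm2619 are at 0 to 22.9 in the 9 young libraries and reach 39.3 to 456 in the 7 aged ones, whereas aged and young libraries of Sp110, Sp140, Sp100, Ifi203 and Ifi204 overlap.

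The other 5 genes were expressed at both ages, with log2 fold changes between the sham groups of -0.07 to 0.28. Sp100, the nuclear body scaffold, averaged 3707 ± 575 normalized counts in Young Sham (SD, n = 5) and 4136 ± 474 in Aged Sham (SD, n = 3), a log2 fold change of 0.16 (SE 0.17). For Sp110 it was -0.04 (SE 0.17), for Sp140 0.12 (SE 0.25), for Ifi203 -0.07 (SE 0.17) and for Ifi204, a DNA-binding activator of interferon responses, 0.28 (SE 0.22). Between the bleomycin groups the values ran from -0.17 for Sp110 to 0.45 for Ifi204 (SE 0.21, 95% interval 0.04 to 0.86). Aged and young libraries overlapped for each of the 5 in both age comparisons.

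Sp100, Ifi203 and Ifi204 were the most abundant of the 8 per length in Young Sham. Sp100 was at 3794, 3624, 4209, 2772 and 4136 normalized counts (Young Sham), 4146, 4162, 3273 and 4476 (Young Bleo), 3962, 4672 and 3773 (Aged Sham) and 4675, 3385, 4310.5 and 4788 (Aged Bleo). All 4 groups overlapped. Ifi203, a p200 protein gene with a pyrin domain, was at 2592, 2444, 2711, 3020.4 and 2854, at 1838, 2349.9, 2445 and 2444, at 3231, 2183 and 2359 and at 1999, 3048, 2496 and 2495 normalized counts in the same order. Young Bleo 17 was its lowest library. Ifi204 was at 3103, 1973, 3326, 4286 and 3643, at 2667, 1958, 2982 and 2222, at 4102, 4112 and 3664 and at 2919.8, 3009, 3842 and 3626 normalized counts. Its Aged Sham libraries lay above all Young Bleo libraries, and Young Sham spanned the widest range.

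In Aged Bleo against Young Bleo, 2 of the 8 genes, C130026I21Rik and Gm2619, were called higher by DESeq2, beside 0.616% of tested genes. These calls too describe genes selected on age differences. By edgeR 0 of the 8 were called, beside 0.0382% of its tested genes, and the log2 fold changes of the 2 were 3.76 and 4.51.

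Between genes, levels can be compared only per length, as FPKM (fragments scaled to gene length and library depth, as deposited). In Aged Sham, Ifi204 was at 9.99 ± 0.315 FPKM (SD, n = 3), Sp100 at 4.93 ± 0.561, Ifi203 at 3.46 ± 0.591, Gm2619 at 2.86 ± 1.07, Sp110 at 2.22 ± 0.430, Ifi202b at 1.66 ± 0.125, Sp140 at 1.37 ± 0.237 and C130026I21Rik at 0.382 ± 0.317. In Young Sham, Ifi204 stood at 9.01 ± 2.07 FPKM (SD, n = 5) and Sp100 at 4.87 ± 0.866, while Gm2619 was at 0.0339 ± 0.0467 and C130026I21Rik at 0.00407 ± 0.00223. The FPKM of Gm2619 rests on its short annotated length, so its rank depends on that annotation.

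The neighbours show how far along the chromosome the age difference reached. The Sp100 window, 1 megabase to either side of the outermost Sp100-like genes, held 12 further listed copies and 68 other genes. Of the copies, 10 were tested and 7 were called higher in Aged Sham than in Young Sham (5 by edgeR), beside 2.24% and 0.699% of all tested genes: Gm15433, Gm7582, A530040E14Rik, Gm2635, Gm7609, Gm2666 and Gm7592. In Aged Bleo against Young Bleo 6 of these copies were called higher by DESeq2 and 0 by edgeR, beside 0.616% and 0.0382%. A copy at or near 0 in young ECs passes the filter only through its aged libraries, so these counts are a description.

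Gm7609, whose start matches that of Sp100, was at 12.3, 5.77, 0, 8.19 and 0 normalized counts in Young Sham and at 71.9, 157 and 114 in Aged Sham. It was at 23.4, 18.7, 2.20 and 32.5 in Young Bleo and at 283, 149.6, 163 and 159 in Aged Bleo, so that the ages did not overlap. Sp100 itself differed between the sham groups by 0.16 on the log2 scale. Gm15433 was at 0 in 4 of the 5 Young Sham libraries and at 5.77 in the other, against 32.0, 158 and 39.3 in Aged Sham. Gm7582 had no read in any Young Sham library and averaged 34.2 normalized counts in Aged Sham and 62.3 in Aged Bleo.

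Of the 68 other genes in that window 31 were tested, and 4 were called higher in Aged Sham: Gm29284, Gm16028, Gm16026 and Gm16025. All 4 start between 659 and 323 kb before the Sp100 start, among the copies, and 1 of them, Gm16028, was called by edgeR. The shares of all tested genes were 2.24% and 0.699%. Gm29284, Gm16028 and Gm16025 were at 0 in every Young Sham library, so the filter caveat of the copies holds here too. In Aged Bleo against Young Bleo DESeq2 called 1 of the 31 higher and edgeR 0, beside 0.616% and 0.0382%. Gm29284, Gm16028 and Gm16026 overlap the span of C130026I21Rik and Gm16025 overlaps Gm2619, so without a stated strand setting their reads cannot be told apart from those of the copies. The genes beyond them were not called. On the log2 scale of group means + 1, Trip12 (929 kb before Sp100) differed by 0.32, Fbxo36 (810 kb before) by 0.56, Cab39 (143 kb after) by 0.12 and Psmd1 (414 kb after) by 0.04. Larger values without a call were seen in both directions, with 1.48 for Pid1 (1614 kb before), -1.91 for Dner (1280.1 kb before) and -3.52 for Nmur1 (736 kb after). Slc16a14 (744 kb before), which was not tested, had 3.84, and a single Aged Sham library at 39.96 normalized counts carried that value, with 0 in every other sham library. Sp110, Sp140 and Sp100, at the far end of the block, differed by -0.04, 0.12 and 0.16.

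**Figure D2:**
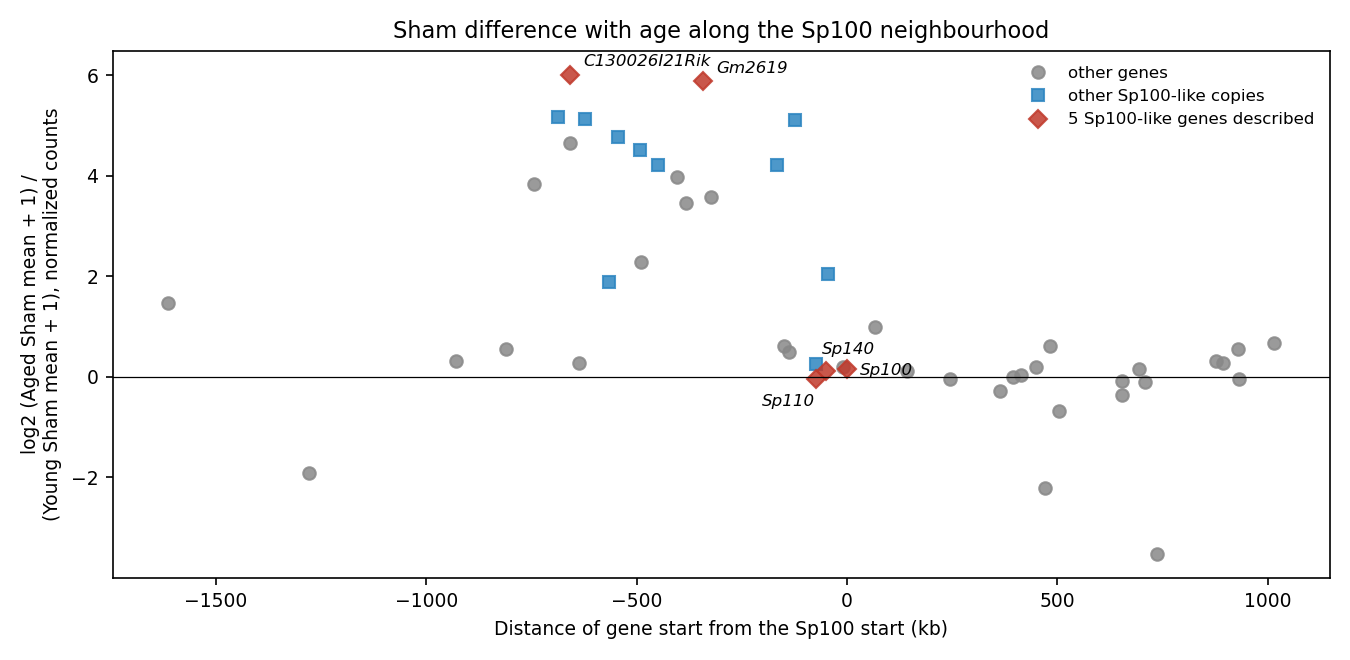
Each point is 1 gene of the Sp100 window with a mean of at least 5 normalized counts in any group, placed by the distance of its start from that of Sp100 (kb) and by the log2 ratio of Aged Sham to Young Sham group means, each + 1. The copies called higher lie between Gm15433, 686 kb before Sp100, and Gm7592, 123 kb before it, while Sp110, Sp140 and Sp100 lie near 0.

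Summed over all 17 Sp100-like genes of the window, the cluster averaged 6102 ± 544 normalized counts (SD) for Young Sham, 7614 ± 576 for Young Bleo, 7279.5 ± 1287 for Aged Sham and 8570.0 ± 1049 for Aged Bleo. The sums of the sham groups overlapped, and the log2 fold change of the summed feature was 0.25 (SE 0.14). On summed deposited FPKM the sham groups did not overlap (12.1 to 14.3 and 15.7 to 24.3), with a log2 ratio of 0.60. Without Sp100, Sp110, Sp140 and G530012D18Rik, a choice made after their values were seen, the other 13 copies summed to 21.8 ± 7.88 for Young Sham, 63.4 ± 25.0 for Young Bleo, 744 ± 373 for Aged Sham and 944 ± 425 for Aged Bleo. The aged sums (456 to 1577) lay above all young ones (13.7 to 92.5). In Aged Sham these 13 copies made up 744 of 7279.5 normalized counts of the cluster.

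**Figure D3:**
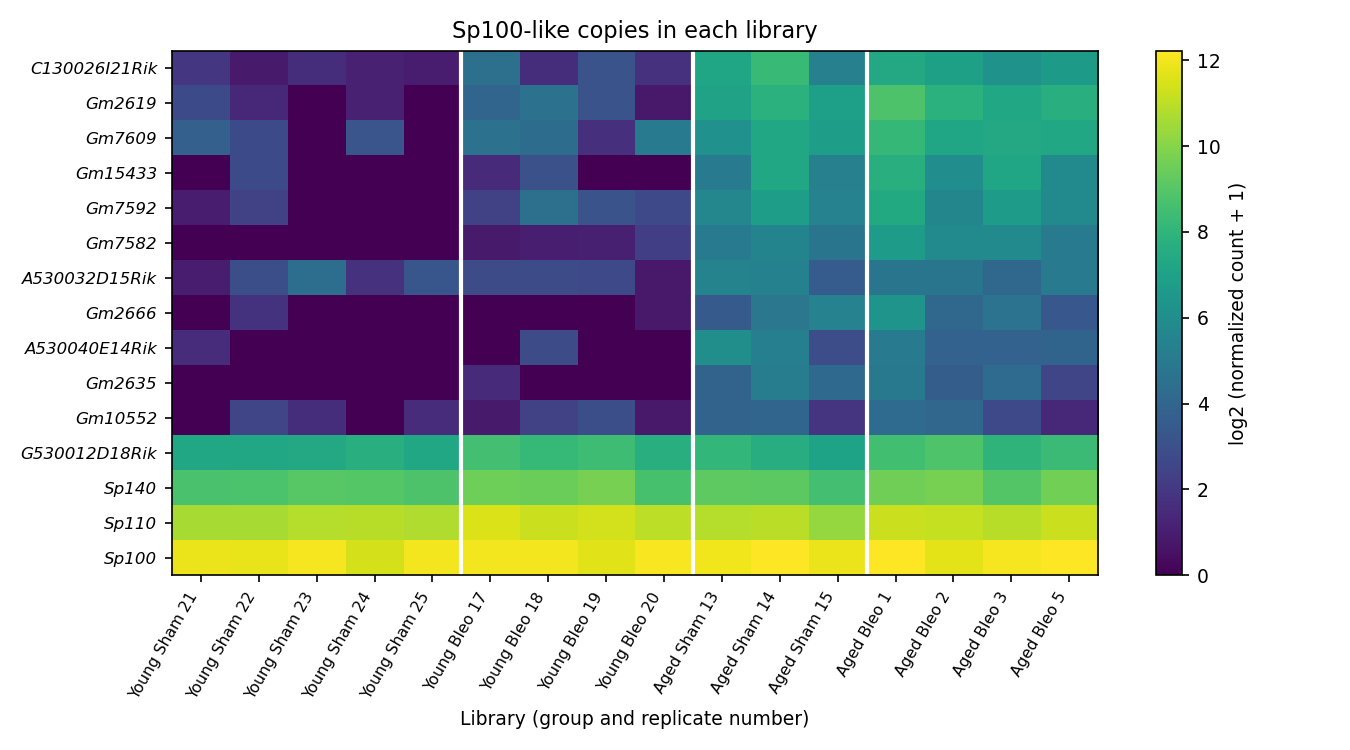
Lines are 15 Sp100-like genes and columns the 16 libraries by group, and colour gives log2(normalized count + 1). The upper 11 genes are darker in most young than in aged libraries, least so A530032D15Rik and Gm10552, whereas Sp140, Sp110 and Sp100 are bright in all 4 groups.

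Leukocyte markers also moved with age, and their part in these values was not tested. Within Aged Sham, library 14 had the highest level of C130026I21Rik (309) and of Gm2619 (226), and also the highest sum of common leukocyte genes (6565) and of macrophage markers (24081). B cell markers (8 genes summed) were at 77.4 to 361 normalized counts (Young Sham), 127 to 289 (Young Bleo), 495 to 1117 (Aged Sham) and 315 to 552 (Aged Bleo), and 1 of the 8 was at 0 in each group other than Aged Sham. The library with the highest macrophage sum also had the highest C130026I21Rik in Young Bleo (library 17, 62012 and 21.7), in Aged Sham (library 14) and in Aged Bleo (library 1, 185751 and 167). Between groups, Young Bleo libraries, with macrophage sums of 18372 to 62012, held 2.08 to 21.7 normalized counts of it, and Aged Sham 13 and 15, with sums of 8353 and 7685, held 146 and 39.3.

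The response to bleomycin was tested for all 8 genes at each age. The Young Sham and Aged Sham libraries are the same ones that served in choosing the genes. In young ECs 3 of the 8 were called higher by DESeq2, namely Sp110, Gm2619 and C130026I21Rik, beside 7.57% of tested genes. By edgeR 1 of the 8, Sp110, was called, beside 5.69%.

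Sp110, a nuclear chromatin reader known from macrophage defence against bacteria, was at 1576, 1574, 1833, 1921 and 1763 normalized counts in Young Sham and at 3063, 2417, 2666 and 2076 in Young Bleo. The groups did not overlap. Its log2 fold change was 0.56 (SE 0.16, DESeq2 adjusted p = 0.00527, edgeR adjusted p = 0.0232), and it fell below the fold that a call needs without Young Bleo 17 (0.46) and on log2(FPKM + 1) (0.44). In aged ECs Sp110 was at 1858, 1959 and 1239 in Aged Sham and at 2453, 2261, 1911 and 2439.7 in Aged Bleo, with overlap, a log2 fold change of 0.43 (SE 0.18) and a DESeq2 adjusted p of 0.150.

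Sp140, whose transcript shares most of its bases with other copies, was at 423, 433, 535, 514 and 453 normalized counts in Young Sham and at 741, 710.2, 847 and 402 in Young Bleo. Young Bleo 20 lay below all Young Sham libraries and the other 3 above them. The log2 fold change was 0.52 (SE 0.23, DESeq2 adjusted p = 0.109), and without Young Bleo 20 it was 0.71 (adjusted p = 0.00507). In aged ECs it was at 589, 564 and 383 in sham and at 763, 828, 491 and 801 after bleomycin (log2 fold change 0.49, SE 0.26, adjusted p = 0.284).

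Macrophage markers were compared with both genes. Young Bleo 20 had the lowest sum of the Young Bleo group (18372) and Young Bleo 17 the highest (62012), which are also the libraries with the lowest and the highest Sp110. Sp140 was lowest in Young Bleo 20 too, but highest in Young Bleo 19, the third by macrophage sum (37609). In the other groups the order was mixed. Aged Bleo 1 and Aged Sham 14, with the highest macrophage sums of their groups (185751 and 24081), also had the highest Sp110 (2453 and 1959). Aged Bleo 5 had the lowest macrophage sum of its group (26975) and 2439.7 of Sp110 and 801 of Sp140, both the second highest there. Sp140 was highest in Aged Bleo 2 (828) and Aged Sham 13 (589). Young Sham 21 had the highest macrophage sum of its group (5634) and 1576 of Sp110, below Young Sham 24 at 1921. The part of macrophages in the Sp110 and Sp140 values was not tested.

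C130026I21Rik and Gm2619 were called higher in young ECs by DESeq2 alone, from almost no reads to few. Both were selected on their difference between the sham groups, and the low Young Sham values that enter it are the baseline here, so the choice favours a higher value. The log2 fold changes were 2.47 (SE 0.89, DESeq2 adjusted p = 0.0379) and 2.62 (SE 0.82, adjusted p = 0.0132), with overlap between the groups in both cases. Neither passed edgeR (adjusted p = 0.0656 and 0.0623). Without Young Bleo 17 the value of C130026I21Rik was 1.37 (adjusted p = 0.396), and without Young Bleo 18 that of Gm2619 was 2.04 (adjusted p = 0.101). The call of C130026I21Rik was also lost without Young Bleo 19 or any of Young Sham 22, 24 and 25 (adjusted p 0.0619 to 0.0932).

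The p200 members did not pass the test in young ECs. The log2 fold change was 0.61 for Ifi202b (SE 0.27, adjusted p = 0.108), -0.26 for Ifi203 (SE 0.16, adjusted p = 0.272) and -0.41 for Ifi204 (SE 0.20, adjusted p = 0.156), all by DESeq2. Ifi202b was selected on its difference between the sham groups, so its low Young Sham baseline favours a higher value. Without Young Bleo 20 the value of Ifi202b was 0.74 (adjusted p = 0.0446), and without Young Sham 22 that of Ifi204 was -0.55 (adjusted p = 0.0103). For Sp100 it was 0.12 (SE 0.15, adjusted p = 0.708), and its 95% interval reached from -0.19 to 0.42.

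In aged ECs 0 of the 8 were called, beside 3.39% of tested genes called higher and 2.44% called lower by DESeq2. Ifi202b was lower in each of the 4 Aged Bleo libraries (181 to 282) than in each of the 3 Aged Sham libraries (289.6 to 336), with a log2 fold change of -0.45 (SE 0.29) that did not pass the test (adjusted p = 0.434). C130026I21Rik had -0.50 (SE 0.75, adjusted p = 0.805) and Gm2619 0.73 (SE 0.70, adjusted p = 0.648). Ifi202b, C130026I21Rik and Gm2619 were selected with their high Aged Sham values. Those values are the baseline here, so the choice favours a lower value and also the lack of overlap for Ifi202b. Sp100, Ifi203 and Ifi204 had 0.05, -0.04 and -0.24, each with an interval that includes 0.

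The difference of responses, aged minus young ECs, contains the contrast between the sham groups that selected the genes, so it is given as a description. It was -2.97 on the log2 scale for C130026I21Rik (SE 1.16), -1.88 for Gm2619 (SE 1.08) and -1.06 for Ifi202b (SE 0.40), and for the other 5 it was between -0.13 and 0.22. Of the 8 genes 0 were called by DESeq2, beside 0.134% of all tested genes called higher and 0.247% called lower, and 0 by edgeR, beside 0% and 0.00546%.

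**Figure D4:**
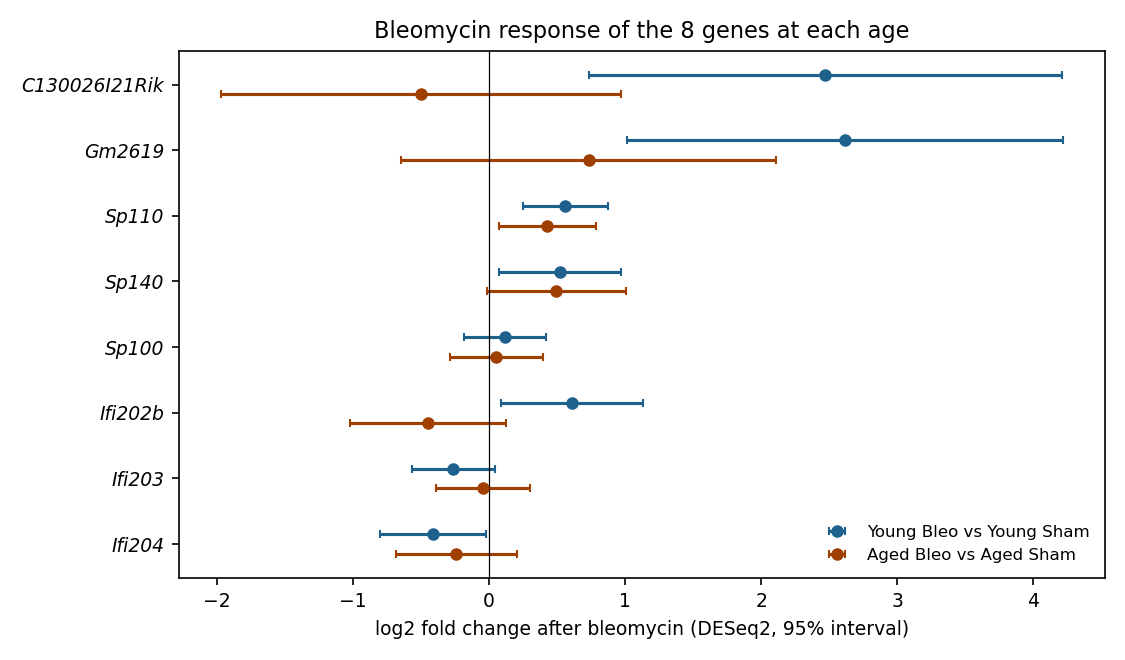
Points are log2 fold changes after bleomycin from DESeq2 with their unadjusted 95% intervals, for young (Young Bleo against Young Sham) and aged ECs (Aged Bleo against Aged Sham). The values of Sp110 (0.56 and 0.43) and Sp140 (0.52 and 0.49) are positive at both ages, and those of Ifi202b (0.61 and -0.45) differ in sign. Neither Ifi202b value was called, and the choice of that gene on its difference between the sham groups favours opposite signs.

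Among the relatives of the p200 members, 11 were in the table and all were tested. Pydc3 and Pydc4, which encode pyrin-domain proteins of the same cluster, were called lower in Young Bleo than in Young Sham by DESeq2, beside 6.35% of tested genes, and edgeR called 0 of the 11. Pydc3 was at 2677, 3079, 2919.8, 3579.5 and 3600.0 normalized counts in Young Sham and at 227, 227, 349 and 1757 in Young Bleo. It was at 1786, 2093 and 3528 in Aged Sham and at 185, 239, 2052 and 1384 in Aged Bleo. The low libraries were Young Bleo 17, 18 and 19 and Aged Bleo 1 and 2, whereas Young Bleo 20 and Aged Bleo 3 and 5 lay between these and the sham libraries or, for Aged Bleo 3, within the range of Aged Sham.

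The log2 fold change of Pydc3 in young ECs was -2.31 (SE 0.72, DESeq2 adjusted p = 0.0137, edgeR adjusted p = 0.0515), and that of Pydc4 was -2.43 (SE 0.88, adjusted p = 0.0399 and 0.0965). Pydc4 split the libraries in the same way: 26.0, 31.2 and 59.5 in Young Bleo 17 to 19 against 408 in Young Bleo 20, and 32.1 and 27.3 in Aged Bleo 1 and 2 against 483 and 333 in Aged Bleo 3 and 5. Gm4955, another copy of the cluster that was picked after its values were seen, did so too, with 7.80, 5.20 and 12.1 against 93.5 and 0.784 and 5.16 against 91.2 and 63.3. Macrophage sums were 37609 to 185751 in the 5 low libraries and 18372, 45688 and 26975 in the 3 others. Dendritic cell markers (6 genes summed) split the bleomycin libraries as these 3 genes did, at 3134, 3549 and 3363 normalized counts in Young Bleo 17 to 19 and 4111 and 3417 in Aged Bleo 1 and 2, against 5493 in Young Bleo 20 and 5442 and 6412 in Aged Bleo 3 and 5. In the sham libraries they were at 4828 to 8195. T and NK cell markers (10 genes summed) split them too. They were at 185, 192 and 207 in Young Bleo 17 to 19 and 374 and 279 in Aged Bleo 1 and 2. In Young Bleo 20 they were at 383, and in Aged Bleo 3 and 5 at 440 and 2994. Endothelial sums did so within each age, at 632804 to 713280 against 758760 in Young Bleo. In Aged Bleo they were 609118 and 641137 against 788261 and 664151. The part of any cell type in these values was not tested.

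Mnda was the single p200 relative called higher in Aged Sham than in Young Sham (log2 fold change 1.45, SE 0.39, DESeq2 adjusted p = 0.0122, edgeR adjusted p = 0.119). It was at 31.3 to 41.5 normalized counts in Young Sham and at 168, 58.8 and 84.1 in Aged Sham. In the same order of Aged Sham libraries, T and NK cell sums were 1305, 216 and 255 and B cell sums 1117, 530 and 495. The part of these cells in the values of Mnda was not tested. Of the 44 other genes of the p200 window 6 were tested, and Ackr1 and Cadm3 were called higher in Aged Sham by DESeq2 and not by edgeR, beside 2.24% and 0.699% of all tested genes. Both were also called higher after bleomycin in young ECs by both tools (log2 fold changes 3.64 and 1.98). Summed over 14 p200 genes, the cluster averaged 11426 ± 1503 normalized counts in Young Sham and 11447 ± 886 in Aged Sham, with 6935 ± 1031 in Young Bleo and 8761 ± 1729 in Aged Bleo.

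**Figure D5:**
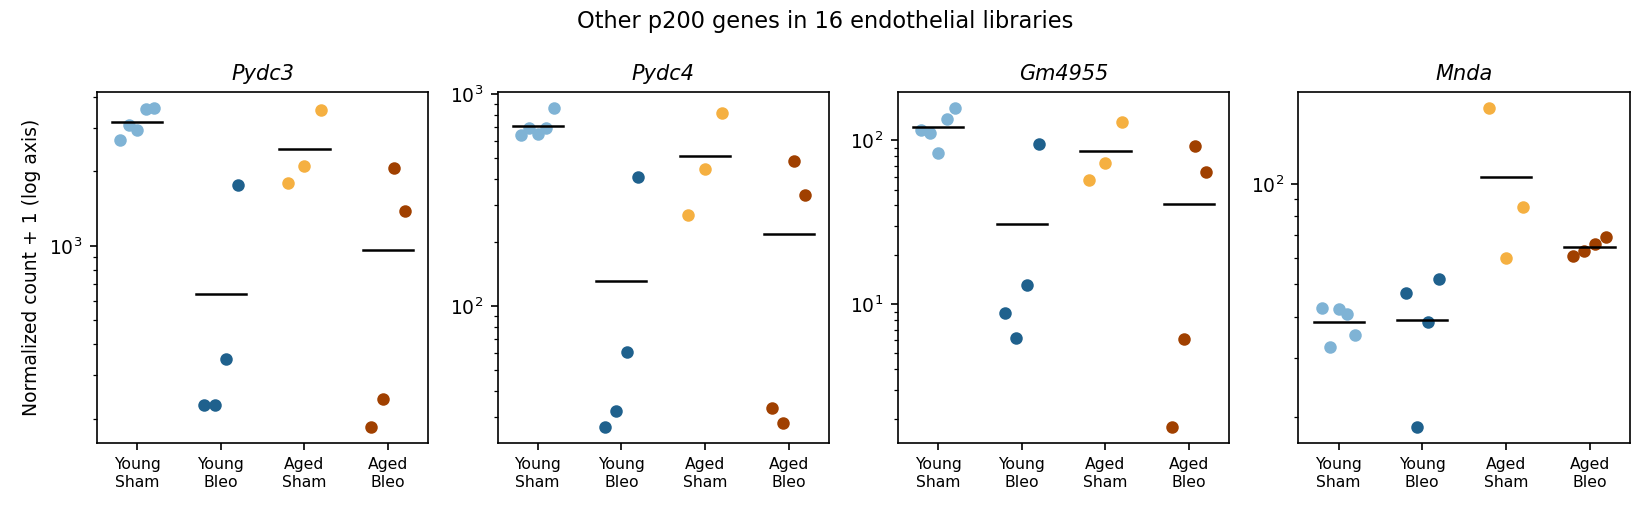
Each panel shows 1 relative of the p200 members, with the normalized count + 1 of each library on a log axis and the group mean as a bar. Pydc3, Pydc4 and Gm4955 fall into low and high libraries within Young Bleo and Aged Bleo, and Mnda is highest in Aged Sham.

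Within the 16 libraries, C130026I21Rik and Gm2619 had a Pearson correlation of 0.93 on log2(normalized count + 1), which was 0.40 once the group means were removed. Sp110 and Sp140 had 0.85 across libraries and 0.83 within groups, and C130026I21Rik and Sp110 had 0.20 and 0.80. These pairs share libraries and, for the Sp100-like genes, stretches of sequence. Among 13766 genes with a mean of at least 50 normalized counts, those most like C130026I21Rik were Serpina1b (0.95), Gm8893 (0.94) and Serpina1e (0.93), which neighbour each other on chromosome 12 and are, like the Sp100 copies, a duplicated family. Those most like Gm2619 were Gm8893, Serpina1d and Serpina1e (each 0.94), and within groups these 6 correlations were 0.31 to 0.45.

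Ifi202b was most like Serpina3n (0.89), a protease inhibitor gene, with 0.13 within groups. Sp110 was most like Eif4e3 (0.94, a cap-binding protein), Arhgap26 (0.93) and Ciita (0.90, the master regulator of MHC class II genes), with 0.78 to 0.88 within groups. Sp140 was most like Glod5 (0.91), G530012D18Rik (0.91) and Rpl17-ps10 (0.91), of which G530012D18Rik is the copy next to Sp110. For Sp100 the leading gene was Arhgap27 (0.87), for Ifi203 Gnpnat1 (0.87) and for Ifi204 Rab21 (0.86).

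Genes of the pathways around these families were read from lists. Of 41 tested interferon-stimulated genes, 9 were called higher in Young Bleo than in Young Sham (6 by edgeR), beside 7.57% and 5.69% of all tested genes. Among them were Ifit1 (log2 fold change 1.03, adjusted p = 2.92e-05) and Oas1a (1.17, adjusted p = 0.00017), which encode antiviral RNA sensors, and Ifi27l2a (2.73, adjusted p = 8.5e-06). In Aged Sham against Young Sham 6 were called higher (5 by edgeR), beside 2.24% and 0.699%, with 1.33 for Ifit1, 1.27 for Oas1a and 3.33 for Ifi27l2a. In Aged Bleo against Aged Sham and against Young Bleo 0 of the 41 were called by either tool, where DESeq2 called 3.39% and 0.616% of all tested genes higher and edgeR 0.448% and 0.0382%. Macrophage marker sums averaged 4933 normalized counts in Young Sham, 43708 in Young Bleo and 13373 in Aged Sham, and their part in the values of this and the following lists was not tested. The median log2 fold change of the list was 0.16 in the young response and 0.28 between the sham groups, beside 0.01 and 0.02 over all tested genes.

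Of 14 tested genes of PML nuclear bodies, the compartments that SP100 helps to build, 0 were called by DESeq2 in any comparison. edgeR called 1 higher in the young response. Of all tested genes, DESeq2 called 7.57% higher and 6.35% lower in the young response and edgeR called 5.69% higher. With so few genes, these counts are near the shares. The list's median was 0.11 in the young response and 0.00 between the sham groups. Of 14 tested genes of cytosolic DNA sensing, 5 were called higher and 1 lower in the young response (3 and 1 by edgeR). The shares of all tested genes were 7.57% and 6.35% by DESeq2 and 5.69% and 4.09% by edgeR. DESeq2 called 1 higher in Aged Sham than in Young Sham and 2 higher in the aged response, beside 2.24% and 3.39%. In both comparisons edgeR called 0 of the list. Tmem173, which encodes STING, the hub of cytosolic DNA signalling, had 2.32 (adjusted p = 6.1e-05) in young and 2.31 (adjusted p = 0.00183, edgeR adjusted p = 0.067) in aged ECs. Samhd1, which encodes an enzyme that limits free nucleotides, had -0.79 (adjusted p = 0.0102) in young ECs.

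Of 20 tested genes of interferon ligands, receptors and signalling, 2 were called higher and 1 lower in the young response, near the 7.57% and 6.35% of all tested genes: Ifngr1 (1.12, adjusted p = 0.0036) and Socs3 (1.95, adjusted p = 4.93e-10) were higher and Ifngr2 (-1.13, adjusted p = 1.03e-06) was lower. These encode the receptor chains for interferon gamma and a feedback inhibitor of cytokine signalling. Socs3 alone was called higher in Aged Sham than in Young Sham (1.26, adjusted p = 0.00234), and Ifngr1 (1.29) and Socs3 (1.15) were called higher in the aged response by DESeq2 (0 by edgeR). The shares over all tested genes were 2.24% and 3.39% by DESeq2. The adjusted p-values of this and the preceding paragraphs on lists are those of DESeq2.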

How the data were processed

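RNA of 16 sorted lung EC libraries was analysed from 1 deposited table. Per the submitters' processing notes and the methods, the authors aligned reads to mm10 with STAR (2.5.2b) and counted them with Subread featureCounts; the deposited values are raw read counts and FPKM per gene. mm10 is a C57BL/6J genome, whereas the mice were FVB. The labels name SMART-Seq v4 with Nextera, the methods TruSeq with poly(A) selection. The annotation release, strand setting and rule for reads with several places are not given in the sources used here. Counts were fitted with DESeq2 (1.42.0, R 4.3.3), which the study used, in 1 model of 43346 genes with group as its only term. Genes were called at an adjusted p up to 0.05 where the log2 fold change was 0.5 or more in size. edgeR (4.0.16, quasi-likelihood) stands beside it, and both were tested on simulated data. limma (3.58.1), FPKM with a pseudocount of 0.1 or 1, TMM factors, a filter of 10 counts in 3 libraries and leaving out each library were alternatives. All 8 genes passed every filter of DESeq2 and edgeR. Transcripts were compared with blastn on GENCODE M21. Libraries were taken as separate mice, and p-values measure the spread between them.

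The members and the lists were chosen with earlier results of these data known. The text names the 8 genes, the 3 genes most correlated with each, copies and neighbours called between the sham groups, the most abundant copies (up to 4 a family) and, per list, up to 3 called genes of highest mean; the flanking genes Slc16a14, Pid1, Dner, Nmur1, Trip12, Fbxo36, Cab39 and Psmd1 were named after their values were seen, and not every gene the rule gives is described. Poisson intervals cover counting error only.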

Additional observations from a re-analysis of the deposited data

Results flagged for a closer look

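In 22 genes of both clusters, groups of 4 or 5 libraries were searched for a library far from the others. A group needed a mean of at least 10 normalized counts, and 8 of 50 groups held such a library. Chance alone marks about 1 in 20 independent groups. No excess is read from this, since the genes share libraries and Gm4955 was added after its values were seen. Of the 8 genes described, only Ifi203 was marked, in Young Bleo. There library 17 was at 1838 normalized counts and the other 3 at 2349.9 to 2445. Library 1 of Aged Bleo stood above the rest of its group for the copies Gm7609 (283 against 149.6 to 163) and A530040E14Rik (32.9 against 13.2 to 14.6). G530012D18Rik was at 201 in Young Sham 24 and at 155 to 166 in the other 4. Young Bleo 20 stood apart for Pydc3 (1757 against 227 to 349), Pydc4 (408 against 26.0 to 59.5) and Gm4955 (93.5 against 5.20 to 12.1), and Young Sham 25 for Pydc4 (860.4 against 644 to 695). No cause was tested.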

How the results depend on the processing

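The counts of called genes depended on the tool. Main counts by DESeq2 were 2578 (Young Bleo against Young Sham), 1080 (Aged Bleo against Aged Sham), 621 (Aged Sham against Young Sham), 190 (Aged Bleo against Young Bleo) and 74 (difference of the responses). With edgeR the last 4 were 146, 158, 8 and 1, with limma voom 53, 104, 29 and 1, and with log2(FPKM + 0.1) 356, 148, 35 and 0; with log2(FPKM + 1) the 5 counts were 1446, 246, 155, 53 and 3. Fitting only the groups compared gave 647 in the aged response. Leaving out 1 library at a time gave 1807 to 3339, 474 to 1492, 369 to 676, 109 to 469 and 36 to 226. Causes were not tested.

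For summed Sp100-like genes the log2 ratios of group means, in the order of the first 4 comparisons, became 0.56, 0.62, 0.60 and 0.66 when deposited FPKM were summed. On normalized counts, the 13 low copies alone gave 1.54 (young response), 5.09 and 3.90 (age, sham and bleomycin). With members only, the p200 sum in the young response was -0.32 against -0.72. Leaving out 1 library gave 0.27 to 0.36, 0.11 to 0.37, 0.12 to 0.38 and 0.10 to 0.22 for Sp100-like, and -0.81 to -0.66, -0.49 to -0.27, -0.06 to 0.07 and 0.23 to 0.45 for p200 sums.

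Values that changed sign were all uncalled. Between the sham groups the alternatives ranged from -0.19 to 0.14 for Sp110, -0.03 to 0.29 for Sp140 and -0.26 to 0.04 for Ifi203, and between the bleomycin groups from -0.09 to 0.24 for Sp140. In the aged response the values were those of C130026I21Rik with limma voom (0.000714) or without 1 library (-0.97 to 0.34, positive without Aged Sham 14), Sp100 (-0.00933 to 0.15) and Ifi203 (-0.15 to 0.14 without 1 library, 0.0839 and 0.0669 on log2(FPKM + 0.1) and log2(FPKM + 1)), and the difference for Gm2619 was 0.39 on log2(FPKM + 1). On log2(FPKM + 1), which understates changes of low genes, the age differences between the sham and the bleomycin groups were 0.44 and 0.34 for C130026I21Rik, 1.87 and 2.26 for Gm2619, and 0.78 and 0.33 for Ifi202b. Without Young Sham 21 that of Gm2619 between the sham groups was 7.58. In the young response the calls of C130026I21Rik and Gm2619 were lost with edgeR, limma voom, both FPKM scales and only the groups compared, and that of Sp110 on log2(FPKM + 1) (0.44). No paired analysis was possible because the groups share no replicate numbers. A term for sex could not be fitted, and the difference needs all 4 groups.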
